A study of Mus musculus with 2 samples.

Results

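The 94 cytochrome P450 genes described here are the protein-coding mouse genes whose symbol has the form Cyp, a family number, a subfamily letter and a gene number, such as Cyp2c55. Their Ensembl identifiers were looked up in the GENCODE annotation, and all 94 were found among the 43346 Ensembl genes of both deposited gene tables. They fall into 16 families and were chosen by name, not by level. Polyadenylated RNA of the sigmoid colon was sequenced from 1 female C57BL/6J mouse, an adult of 10 weeks. From this mouse come 2 libraries marked as technical replicates, and they are called library 1 and library 2 by those replicate numbers. The labels date library 2 to 2015 and place it outside the publication that used library 1. No year is recorded for library 1, and how their preparation differed is not given in the sources used here. A difference in date or preparation therefore cannot be told apart from the library in any ratio between them. There was 1 group, with no treatment, second genotype or second animal. The SD behind each ± is taken over these libraries (n = 2) and says nothing of differences between mice.

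Cytochrome P450 enzymes carry a haem group whose iron is bound by a conserved cysteine and insert 1 oxygen atom into fatty acids, sterols, retinoids, bile acids, drugs and dietary compounds. Most sit in the endoplasmic reticulum and take electrons from P450 oxidoreductase, while a smaller mitochondrial group is fed by ferredoxin. Families 1 to 4 hold most enzymes of foreign compounds and fatty acids, and the higher family numbers mostly hold enzymes with a defined sterol, steroid, vitamin or retinoid substrate. In the gut the epithelium is the best known site of these enzymes.

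The coding stretch around the haem-binding cysteine shows how the abundant subfamilies differ in sequence. A reading frame of the annotated length was read from the GENCODE M21 transcripts (GRCm38) for 91 of the 94 genes, and 83 of these held phenylalanine, glycine, arginine, cysteine and glycine at the spacing of the P450 signature. The 30 bases of that stretch are shown 5′ to 3′ for leading genes of 5 subfamilies, with the cysteine codon in capitals, because these subfamilies differ both in GC content and, further on, in how the libraries measured them.
Cyp2c55: ttctcaataggaaagcgaatgTGCgtggga
Cyp2c65: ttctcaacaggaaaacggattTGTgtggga
Cyp2c68: ttctcagcaggaaaacggattTGTgtggga
Cyp3a13: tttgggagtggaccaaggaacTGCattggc
Cyp2j6: ttctcaatgggaaagcgagctTGCctggga
Cyp2d34: ttctcagcaggccgcagatcaTGCctgggt
Cyp2d10: ttctcagcaggccgcagatcaTGCctgggt
Cyp4f16: ttttctgccgggcccaggaacTGCatagga
Cyp4f40: ttctcagcggggccaaggaacTGCattgga
The Cyp2c55 stretch covers bases 1282 to 1311 of its coding sequence on the plus strand of chromosome 19 and holds 14 G or C bases of 30. That of Cyp2d34, on the minus strand of chromosome 15, covers bases 1315 to 1344 and holds 18. The Cyp2d34 and Cyp2d10 stretches are the same letter for letter. Over whole coding sequences, the share of last codon positions that are G or C ran from 45.5 to 60% in 14 Cyp2c genes (median 47.1%) and from 46.1 to 48.6% in 7 Cyp3a genes. It ran from 62.6 to 67.9% in 8 Cyp2d genes and from 65.8 to 69.7% in 8 Cyp4f genes, so the Cyp2d and Cyp4f genes lay above every gene of Cyp2c and Cyp3a on this measure.

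Library 1 held 25843064 expected counts, reads assigned to genes by the authors' model, and library 2 held 20681575. The P450 genes took 71320 and 50432 of them, which is 0.276% of library 1 (95% Wilson interval 0.274 to 0.278%) and 0.244% of library 2 (0.242 to 0.246%). Levels are given as TPM, a transcript abundance corrected for transcript length that adds up to the same total in both libraries. Of that total, the mitochondrial chromosome held 44.2% in library 1 against 12.6% in library 2, and nuclear protein-coding genes held 31.3 and 75.3%. A TPM pair that looks even can therefore be uneven in scaled counts. Ratios of scaled counts, as log2 of library 2 over library 1 with a counting SE, are the main scale for comparing the libraries. Where no count was recorded, a true level of up to 3 counts cannot be told from 0, which is 0.116 CPM (a count scaled to library size) for library 1 and 0.145 CPM for library 2. These limits and the Wilson intervals reflect counting error alone.

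The 94 genes summed to 1570 TPM in library 1 and 1926 TPM in library 2 (1748 ± 251). Taken over nuclear protein-coding genes alone, the sums were 5011 and 2556 TPM, so the order of the libraries turned with the denominator. At least 1 TPM in both libraries was reached by 25 genes, or 26.6%, against 46.9% of the 21461 nuclear protein-coding genes. Another 6 genes reached it in library 2 only and 0 in library 1 only. No count in either library was recorded for 35 genes, or 37.2%, against 21.6% of nuclear protein-coding genes. A short list of genes therefore held the measured P450 RNA, and a longer list lay near 0.

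**Figure D1:**
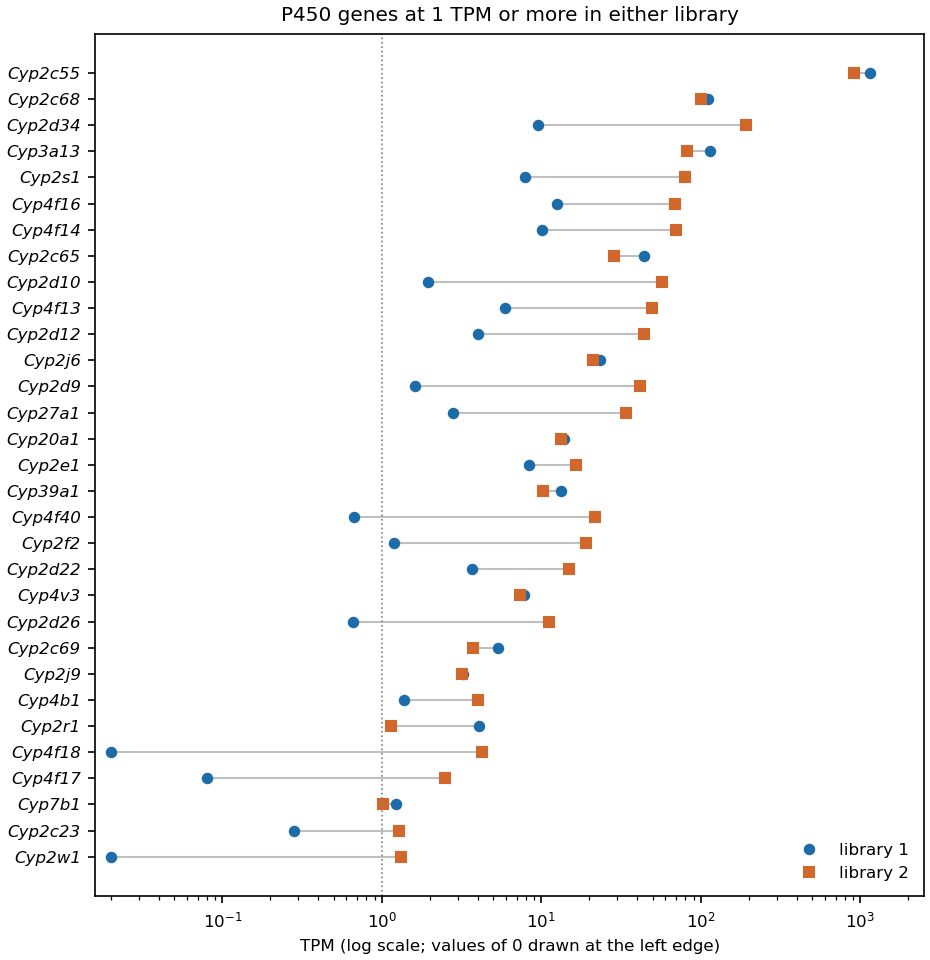
TPM of each P450 gene that reached 1 TPM in library 1 (circles) or library 2 (squares), on a log axis, ordered by mean level, with a dotted line at 1 TPM. Cyp2c55 stands far to the right in both libraries at 1152 and 916 TPM, the pairs of Cyp2c55, Cyp2c68, Cyp3a13 and Cyp2j6 lie close together, and the Cyp2d and Cyp4f pairs lie far apart.

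Cyp2c55 was the most abundant P450 gene of this colon in both libraries. It encodes an enzyme that hydroxylates and epoxidises arachidonic and linoleic acid and is known as a P450 of the large intestine. The gene (ENSMUSG00000025002.5) lies on the plus strand at chr19:39007019-39042693 in GRCm38. It was measured at 1152 TPM in library 1 and 916 TPM in library 2 (1034 ± 167), which placed it at rank 13 and rank 124 among protein-coding genes. This was 73.4% of the summed TPM of all P450 genes in library 1 and 47.5% in library 2. The counts behind these values were 50109 and 23888, and 2.9% of its 31-base words occur in another gene, so near-identical copies touched little of it.

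Cyp2c68 and Cyp2c65 followed within the same gene cluster. Cyp2c68, chr19:39688834-39741054 on the minus strand, was at 111 and 99.6 TPM (105 ± 8.16). Cyp2c65, an epoxygenase of arachidonic acid at chr19:39061015-39093944 on the plus strand, was at 43.8 and 28.5 TPM (36.2 ± 10.8). Cyp2c69 was at 5.38 and 3.75 TPM (4.57 ± 1.15). The other 11 of the 15 Cyp2c genes lay under 1 TPM in library 1, and only Cyp2c23, an arachidonic acid epoxygenase best known from the kidney and named after its values were seen, passed 1 TPM in library 2, at 0.28 and 1.29 TPM. The gene order along the chromosome held high and silent genes side by side. Cyp2c66, the next gene after Cyp2c65 and chosen after its values were seen, had 5.02 and 2.09 counts although its coding sequence is 96.3% identical. Between Cyp2c68 and Cyp2c69 lay Cyp2c40, likewise chosen afterwards, at 0.37 and 0.29 TPM.

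**Figure D2:**
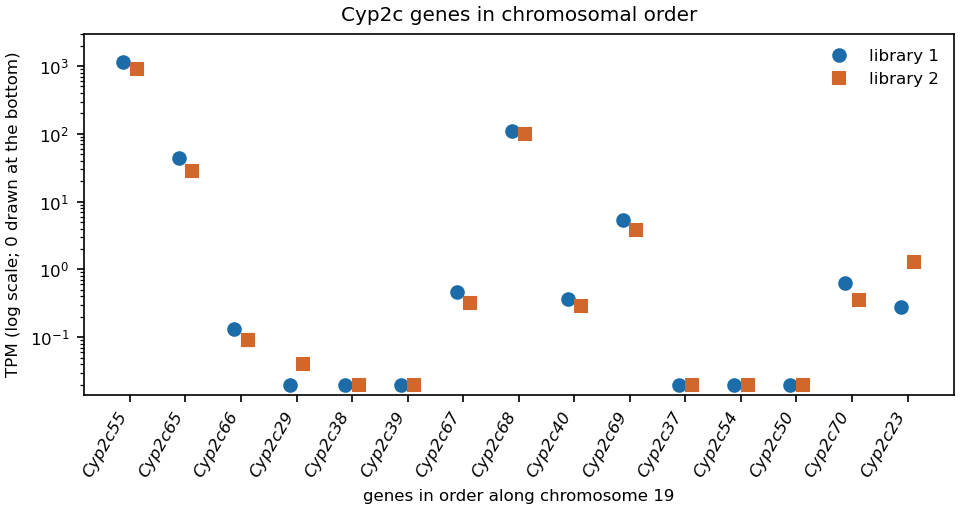
TPM of the 15 Cyp2c genes in library 1 (circles) and library 2 (squares) on a log axis, in their order along chromosome 19, with values of 0 drawn at the bottom. Cyp2c55 and Cyp2c65 open the row at high levels, Cyp2c66 drops to 0.13 and 0.09 TPM, and Cyp2c68 stands alone at 111 and 99.6 TPM between genes under 1 TPM.

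These levels rest in part on reads that near-identical genes share. Of the 31-base words of Cyp2c68, 62.0% occur in another gene and 53.6% in Cyp2c40. The corresponding shares were 64.9% in another gene for Cyp2c69 and 35.4% for Cyp2c65, of which 33.5% lie in Cyp2c66. The authors' model split such reads, and its posterior SD of the count was 1.28 and 1.26 counts for Cyp2c68. Cyp2c68 and Cyp2c67 are 97.1% identical in coding sequence, and Cyp2c40 and Cyp2c69 97.9%. Whether the split within this group is less certain than the SD printed was not tested. Of all 94 genes, 47 share more than 10% of their words with another gene, and 13 of these had enough counts to be tested.

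The start regions of Cyp2c65 and Cyp2c66 allow a closer look at that unequal pair. RefSeq windows (GRCm38.p6) of 300 bases, from 250 before to 50 after a gene's start, matched 73 of the 94 genes. The element CAAAGTCCA, a site form of the nuclear receptor HNF4A, was searched on both strands and occurred in 9 of the 83 P450 windows (10.8%), against 0.475% of 32841 windows of all genes. Another 3 motifs were searched. The nuclear receptor half-site AGGTCA (both strands) was in 26.5% of P450 windows against 16.3% of all, and TATAAA (gene strand) in 28.9% against 8.32%. The aryl hydrocarbon receptor core GCGTG (both strands) was in 20.5% against 32.4%. The longer element was found in the windows of Cyp2c40, Cyp2c65, Cyp2c67, Cyp2c68, Cyp2c69, Cyp2c70, Cyp3a11, Cyp3a16 and Cyp8b1, of which several are near-identical copies and so not separate occurrences. Those of them outside the naming rule are listed for the element alone. The window of Cyp2c55 did not hold these letters. Bases from 40 before the element to the gene start are shown for both neighbours, on the plus strand, with the element in capitals.
Cyp2c65: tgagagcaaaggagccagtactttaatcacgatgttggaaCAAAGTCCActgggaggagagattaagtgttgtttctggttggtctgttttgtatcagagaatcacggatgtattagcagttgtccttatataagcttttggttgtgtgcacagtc
Cyp2c66: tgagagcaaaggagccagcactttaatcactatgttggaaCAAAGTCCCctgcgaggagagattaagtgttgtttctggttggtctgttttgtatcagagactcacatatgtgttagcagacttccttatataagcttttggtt
The Cyp2c65 stretch is chr19:39060850-39061005 and that of Cyp2c66 chr19:39113754-39113897. The element starts 116 bases before the Cyp2c65 start, and within it the Cyp2c66 sequence differs by A9C, counted from 1 at the 5′ end of the element with the Cyp2c65 base first. A match is a description of letters. Genes with the element were found both at 111 TPM (Cyp2c68) and with 0 counts (Cyp3a16 and Cyp8b1).

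Outside Cyp2c, the largest level in library 1 was that of Cyp3a13, the Cyp3a enzyme known from mouse intestine, which oxidises drugs and steroids. It lies on the minus strand at chr5:137892932-137921619 and was at 115 and 82.5 TPM (98.7 ± 23.0). It made up nearly all of the Cyp3a subfamily, whose 7 genes of the symbol form used here summed to 115 and 82.8 TPM. Of these 7, 4 had no counts. Only 0.2% of its words occur in another gene. Cyp2j6, a fatty acid epoxygenase, was at 23.2 and 21.01 TPM (22.1 ± 1.57), close to the 26.6 and 24.3 TPM of all 8 Cyp2j genes. Cyp2e1, which oxidises ethanol and small solvents, was at 8.34 and 16.5 TPM (12.4 ± 5.75).

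Cyp2s1, an enzyme of lining epithelia outside the liver, was at 7.94 TPM in library 1 and 80.1 TPM in library 2 (44.0 ± 51.0), on counts of 489 and 2964. Cyp2f2, known from lung club cells where it activates naphthalene, was at 1.19 and 19.1 TPM. Both were several times higher in library 2, so their SDs were above their means. Cyp2r1, the vitamin D 25-hydroxylase, went the other way, at 4.09 and 1.14 TPM.

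Of the 8 Cyp2d genes, relatives of the human drug-metabolising enzyme CYP2D6, 5 were called higher in library 2 and 1 tested gene was not called. Of all genes tested, 37.0% were called higher. The share was 53.9% among those with a GC content of 50 to 55%, where the tested Cyp2d genes lie. Cyp2d34 (chr15:82615965-82620946, minus strand) was at 9.56 TPM in library 1 and 192 TPM in library 2 (101 ± 129), where it was the second most abundant P450 gene. Cyp2d10 was at 1.94 and 56.8 TPM, Cyp2d12 at 4.02 and 44.3 TPM, and Cyp2d9 at 1.62 and 41.7 TPM. Cyp2d22 was at 3.67 and 14.9 TPM and Cyp2d26 at 0.66 and 11.1 TPM. These 6 genes were all higher in library 2 on the TPM scale. The 8 Cyp2d genes together took 1.37% of the summed P450 TPM in library 1 and 18.7% in library 2. Coding sequences of Cyp2d10 and Cyp2d34 are 90.6% identical, and 50.2% of the words of Cyp2d10 occur in another gene, against 14.5% for Cyp2d34. The near-silent copy here was Cyp2d11, with 0 and 2.06 counts, which was chosen after its values were seen.

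Family 4 hydroxylates the far end of fatty acids and of eicosanoids such as leukotriene B4. Its 17 genes of the symbol form used here summed to 38.9 and 230 TPM (134 ± 135), of which the 9 Cyp4f genes gave 29.3 and 218 TPM. Cyp4f16 (chr17:32536558-32551798, plus strand) was at 12.6 and 69.2 TPM (40.9 ± 40.02). Cyp4f14, a leukotriene B4 hydroxylase, was at 10.0 and 69.8 TPM, Cyp4f13 at 5.90 and 49.7 TPM, and Cyp4f40 at 0.67 and 21.6 TPM. Cyp4f18, a leukotriene hydroxylase of neutrophils that was named after its values were seen, had 0 counts in library 1 and 77 in library 2, or at least 19.1-fold higher against the floor of 3 counts in library 1. It overlaps Zfp961 on the opposite strand, which had 854 and 356 counts, and the strand setting of the counting is not given in the sources used here. Cyp4v3, a fatty acid hydroxylase, was at 7.73 and 7.35 TPM (7.54 ± 0.269), and in scaled counts it was lower in library 2 (673 and 383 counts, log2 ratio -1.24 ± 0.09). The 5 Cyp4a genes of that symbol form, known from liver and kidney, had 1 count in all.

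**Figure D3:**
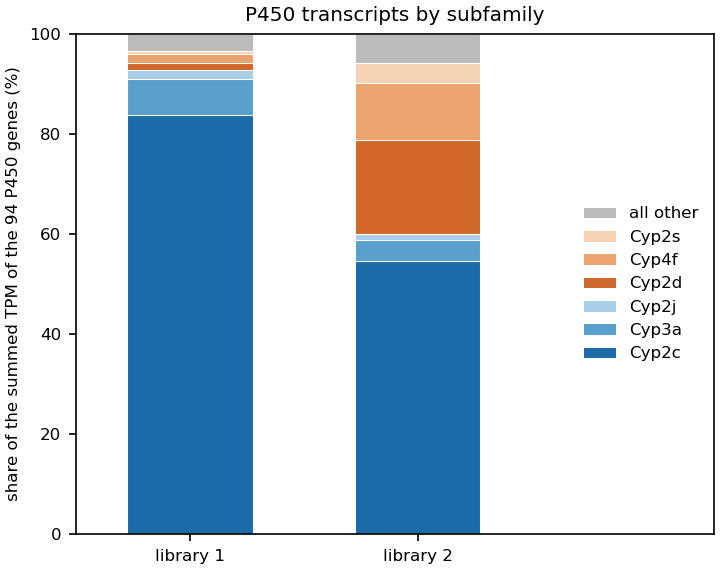
Share of the summed TPM of the 94 P450 genes taken by each subfamily, stacked to 100% for library 1 and library 2. Cyp2c takes 83.7% in library 1 and 54.5% in library 2, while Cyp2d goes from 1.37 to 18.7% and Cyp4f from 1.86 to 11.3%.

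Genes with a defined sterol or vitamin substrate were fewer and lower. Of the 6 genes of bile acid and oxysterol metabolism, Cyp39a1, which hydroxylates 24-hydroxycholesterol, was at 13.3 and 10.3 TPM (11.8 ± 2.16). Cyp27a1, the mitochondrial sterol 27-hydroxylase, was at 2.81 and 33.7 TPM (18.3 ± 21.9). Cyp7b1, the oxysterol 7-hydroxylase, was at 1.22 and 1.02 TPM (1.12 ± 0.141; log2 ratio of scaled counts -1.41 ± 0.33, called lower), and Cyp46a1, the cholesterol 24-hydroxylase of neurons, at 0.02 and 0.18 TPM. The classic liver genes Cyp7a1, the rate-limiting enzyme of bile acid synthesis, and Cyp8b1, which sets the share of cholic acid, had 0 counts in both libraries. Cyp20a1, whose substrate is not known, was at 14.0 and 13.2 TPM (13.6 ± 0.523). On 510 and 388 counts its log2 ratio was -0.82 ± 0.10, under 2-fold.

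In vitamin D metabolism, the 25-hydroxylases Cyp2r1 and Cyp27a1 were measured as above, while Cyp27b1, which makes the active hormone, had 2 and 6 counts. Cyp24a1, which breaks that hormone down and is a classic target of its receptor, had 0 counts in both. The receptor gene Vdr itself was at 42.4 and 178 TPM. Among the retinoic acid hydroxylases, Cyp26b1 was at 0.17 and 0.25 TPM (19 and 16 counts), Cyp26a1 had 1 and 1 counts and Cyp26c1 had none. The steroid hormone genes were near the floor or at 0: Cyp11a1, which makes pregnenolone from cholesterol, had 1 and 12 counts, Cyp11b1 had 2 and 0, and Cyp11b2, Cyp17a1, Cyp19a1 and Cyp21a1 had 0. In family 1, the targets of the aryl hydrocarbon receptor, Cyp1b1 was at 0.34 and 0.28 TPM (41 and 20 counts, log2 ratio -1.44 ± 0.39, called lower), Cyp1a1 had 1 and 4 counts and Cyp1a2 had none.

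The 35 genes with 0 counts in both libraries, which allows up to 3 counts in each, were Cyp1a2, Cyp2a4, Cyp2a5, Cyp2a22, Cyp2b13, Cyp2b19, Cyp2b23, Cyp2c37, Cyp2c38, Cyp2c39, Cyp2c50, Cyp2c54, Cyp2d40, Cyp2g1, Cyp2j7, Cyp2j11, Cyp2j12, Cyp2t4, Cyp3a16, Cyp3a44, Cyp3a57, Cyp3a59, Cyp4a14, Cyp4a29, Cyp4a31, Cyp4a32, Cyp4f37, Cyp7a1, Cyp8b1, Cyp11b2, Cyp17a1, Cyp19a1, Cyp21a1, Cyp24a1 and Cyp26c1. Several of them, such as Cyp2c37, Cyp2c50, Cyp2c54 and Cyp4a14, are known as liver genes. Polyadenylated RNA of whole tissue does not separate fewer cells of a type from less RNA per cell.

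The libraries were compared gene by gene with a two-sided exact binomial test of counts, given TMM-scaled library sizes, over all 15705 genes with a mean of at least 10 expected counts. A gene was called at a Benjamini-Hochberg adjusted p under 0.05 and at least 2-fold. The test compares these libraries of 1 mouse and covers counting error only. Of the 36 P450 genes tested, 30 were called (83.3%), against 65.2% of all genes tested. Higher in library 2 were 17 (47.2%, against 37.0%), and 13 were lower (36.1%, against 28.2%). Scaled by total counts instead, 19 were higher and 2 lower, against 47.7 and 11.7% of all genes tested. The genes Cyp4f17, Cyp4f18, Cyp2u1 and Cyp2w1 had under 10 counts in library 1 and so entered through library 2 alone, where they are high, and Cyp2c67 entered through library 1 alone. These 5 calls were in part set by that filter, and the other 31 genes gave 13 higher and 12 lower. The median log2 ratio of library 2 over library 1 was 0.78 over the tested P450 genes and 0.12 over all genes tested.

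The calls split by subfamily, beside 37.0% higher and 28.2% lower of all genes tested. Of the 6 tested Cyp4f genes, Cyp4f13, Cyp4f14, Cyp4f16 and Cyp4f40 were higher in library 2, as were Cyp4f17 and Cyp4f18, which had entered through that library. Higher too were 5 of the 6 tested Cyp2d genes, with Cyp2d22 under 2-fold at a log2 ratio of 0.85 ± 0.11 (counting SE). Of the 6 tested Cyp2c genes 5 were lower, and Cyp2c23 was higher at 1.00 ± 0.48 (exact binomial test, adjusted p = 0.0393), a call lost at 0.95 with DESeq2 size factors. Both tested Cyp2j genes and Cyp3a13 were lower. Among genes with a mean count of at least 50, the highest log2 ratios were those of Cyp4f40 (3.82 ± 0.28), Cyp2d10 (3.70 ± 0.18), Cyp2d9 (3.51 ± 0.20), Cyp2d34 (3.16 ± 0.08) and Cyp2d26 (2.89 ± 0.31). The lowest were those of Cyp2r1 (-2.96 ± 0.33), Cyp2c65 (-1.79 ± 0.06), Cyp2c69 (-1.68 ± 0.19), Cyp3a13 (-1.65 ± 0.03) and Cyp39a1 (-1.54 ± 0.09). Cyp2c55 was lower at -1.498 ± 0.011 although its TPM values were 1152 and 916.

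The direction of the calls went with the GC content of the transcripts. The 13 lower genes had GC contents of 41.3 to 46.1% and the 17 higher genes of 48.0 to 61.7%, with no overlap. The 48.0% is that of Cyp2c23, whose call was lost with DESeq2 size factors. The 61.7% is that of Cyp2w1, which had 0 counts in library 1. Below 45% GC, 11 of 11 tested P450 genes were lower, against 87.9% of 3747 genes. From 45 to 50% GC, 1 of 6 was higher and 2 were lower, against 4.5 and 23.6% of 4151 genes. From 50 to 55% GC, 12 of 14 were higher, against 53.9% of 4180 genes, and the median log2 ratio was 2.56 against 1.14. At 55% or more, 4 of 5 were higher, against 93.6% of 3580 genes. Among those 4, Cyp4f17, Cyp4f18 and Cyp2w1 had entered through library 2 alone, so their calls were in part set by the filter. The same holds for Cyp2u1 among the 12 from 50 to 55% GC, and for Cyp2c67, through library 1, below 45%. Across the 36 genes, which share both libraries and include these genes, Spearman's rho of ratio and GC content was 0.88 (Pearson 0.87). It was 0.90 across 15658 genes.

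**Figure D4:**
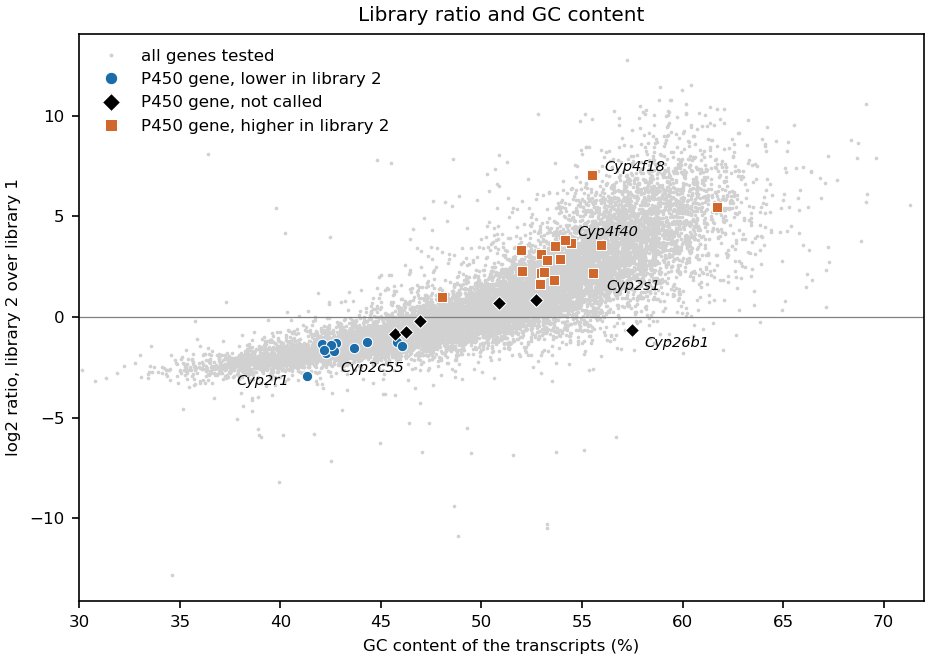
Log2 ratio of library 2 over library 1 against transcript GC content, for all genes tested (grey) and for P450 genes called lower (circles), higher (squares) or not called (diamonds). The P450 genes follow the grey cloud upward to the right, and Cyp26b1 lies below it at 57.5% GC. Cyp4f18 had 0 counts in library 1, so its height depends on the prior count.

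When the trend with GC content over all genes was taken off, 10 of the 36 P450 genes were still higher in library 2 (27.8%, against 12.4% of all genes) and 2 were lower (5.56%, against 11.3%). All 10 had also been called higher before, and 8 of them had at least 10 counts in both libraries. They were Cyp2d9, Cyp2d10, Cyp2d12, Cyp2d26, Cyp2d34, Cyp2f2, Cyp2c23, Cyp4f40, Cyp4f18 and, named after its values were seen, Cyp2u1, so every Cyp2d gene called before was called again. Remaining log2 ratios were 1.78 for Cyp2d34, 1.61 for Cyp2d10, 1.81 for Cyp2d9 and 1.32 for Cyp2d12. Of the 6 Cyp4f genes, Cyp4f40 (1.89) and Cyp4f18 stayed called. The ratio of Cyp2c55 became 0.15 and that of Cyp3a13 -0.04, and both were no longer called. Cyp2r1 stayed lower at -1.19, and Cyp26b1, on 19 and 16 counts, was lower at -4.24 where its own ratio had been -0.66.

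**Figure D5:**
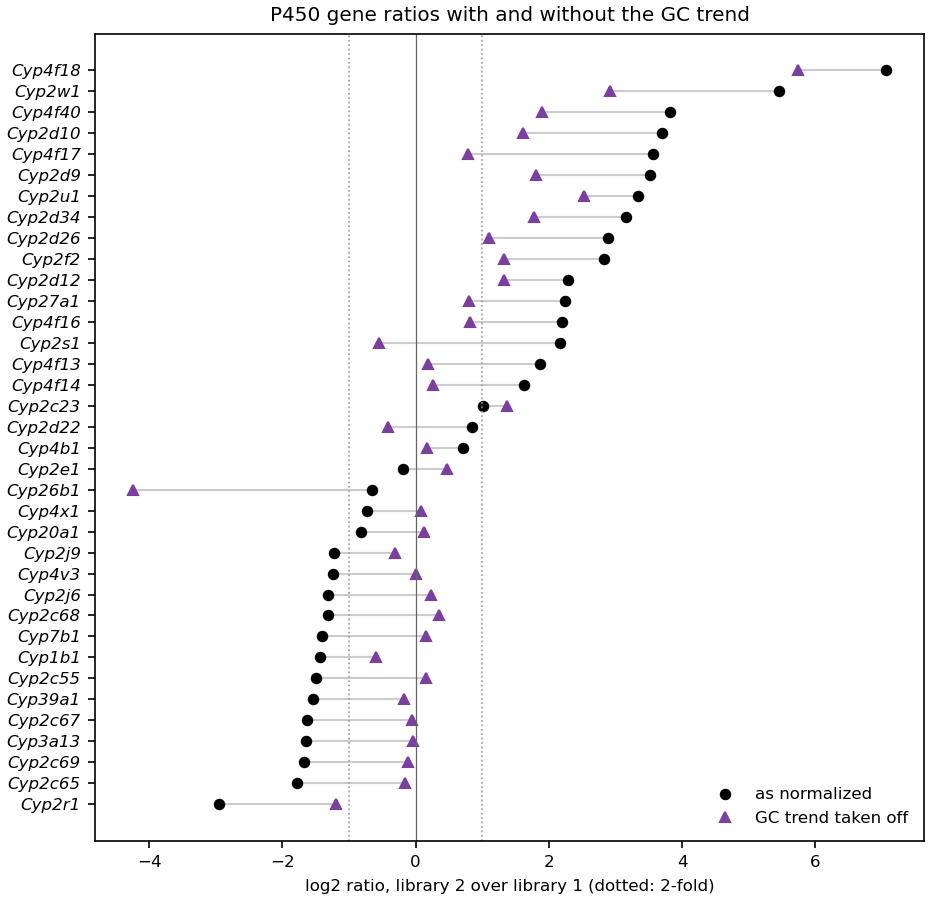
Log2 ratio of library 2 over library 1 for the 36 tested P450 genes as normalized (circles) and with the GC trend taken off (triangles), with dotted lines at 2-fold. The triangles of Cyp2c55, Cyp2c65, Cyp2c69 and Cyp3a13 lie near 0 while the Cyp2d9, Cyp2d10, Cyp2d12, Cyp2d26 and Cyp2d34 triangles stay beyond 2-fold. The circles of Cyp4f18 and Cyp2w1, with 0 counts in library 1, depend on the prior count.

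Several genes with more than 1 listed transcript were assigned to different transcripts in the libraries. Cyp4f14 was assigned wholly to ENSMUST00000054174.7 in library 1, and in library 2 16.4% to it and 83.6% to ENSMUST00000179434.3. Of the 31-base words of the first, 90.5% occur in some other transcript of the gene, and the overlap of this pair alone was not measured. For Cyp2s1, ENSMUST00000043314.5 took 30.6 and 85.0% and ENSMUST00000152560.3 took 68.4 and 12.7%. Cyp20a1 went from 33.2% to 100% for ENSMUST00000060608.8, at gene TPM values of 14.0 and 13.2. The leading transcript of Cyp4f16 in library 2, ENSMUST00000003416.10, took 15.0 and 53.6%, and that of Cyp4f13, ENSMUST00000075253.8, took 8.0 and 65.7%. Cyp27a1 was closer, with 70.2 and 57.5% for ENSMUST00000027356.6, and Cyp2f2 and Cyp4v3 had 1 transcript at 100% in both. A TPM of a gene whose short and long transcripts were weighted differently carries that split with it.

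The genes that serve P450 enzymes were measured in both libraries. Of 10 electron donors and partners, 6 were higher in library 2, 2 lower and 2 not called, beside 37.0% higher and 28.2% lower of all genes tested. Por, the oxidoreductase that feeds the microsomal P450 enzymes, was at 8.37 and 71.0 TPM (log2 ratio 3.75 ± 0.14). Cyb5a, cytochrome b5, was at 92.6 and 201 TPM but not called, with a log2 ratio of -0.21 ± 0.06, and Pgrmc1, a haem-binding partner of P450 enzymes, was at 126 and 80.0 TPM (-1.83 ± 0.04). The mitochondrial ferredoxin Fdx1 was at 6.42 and 34.2 TPM. Of 10 genes of haem synthesis and breakdown, 6 were higher, 1 lower and 3 not called, beside the same shares of all genes. Alas1, the first and rate-limiting step, was at 12.8 and 89.8 TPM. GC contents were 57.5% for Por, 47.4% for Cyb5a, 44.9% for Pgrmc1, 49.4% for Fdx1 and 53.4% for Alas1. Of all genes tested, 93.6% were higher at 55% GC or more and 53.9% from 50 to 55%, while 87.9% were lower below 45%. The part of GC content in these ratios was not tested.

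Receptors that switch on P450 genes gave 9 higher, 2 lower and 5 not called of 16 tested out of 17, again beside 37.0 and 28.2% of all genes. Ahr, the aryl hydrocarbon receptor, was at 11.7 and 9.85 TPM (log2 ratio -1.47 ± 0.07, lower) beside its target Cyp1a1 at 0.02 and 0.11 TPM. Nr1i2, the pregnane X receptor, was at 3.72 and 53.1 TPM, Nr1i3, the constitutive androstane receptor, at 0.44 and 6.60 TPM, and Hnf4a at 49.2 and 348 TPM. GC contents were 46.1% for Ahr, 53.2% for Nr1i2 and Nr1i3 and 55.1% for Hnf4a, and their part in these ratios was not tested. Of the 4 epoxide hydrolases, which open the epoxides that Cyp2c and Cyp2j enzymes form, Ephx2 was at 11.2 and 18.0 TPM (log2 ratio -0.48 ± 0.09, not called) and Ephx1 at 2.56 and 26.5 TPM. Cyp51, the sterol demethylase of cholesterol synthesis, falls outside the naming rule and was at 47.3 and 42.4 TPM (log2 ratio -1.33 ± 0.04, lower). Ptgis, the prostacyclin synthase, was at 0.11 and 5.54 TPM, and Tbxas1, the thromboxane synthase, at 0.79 and 5.15 TPM.

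Marker genes of the labelled tissue were present, and on the TPM scale the sum of each marker list given here was higher in library 2. In scaled counts, 37.0% of all genes tested were higher and 28.2% lower. Of 5 fibroblast genes 1 was higher, 2 lower and 2 not called, and of 5 colonocyte genes 3, 1 and 1. General epithelial genes gave 3 higher and 2 not called, goblet cell genes 4 and 1, and smooth muscle genes 5 higher. No other list given here had a gene called lower. The 5 colonocyte genes summed to 2084 and 7154 TPM, the 5 general epithelial genes to 774 and 6630 TPM and the 5 goblet cell genes to 3904 and 26253 TPM. Smooth muscle genes summed to 273 and 4334 TPM, fibroblast genes to 620 and 738 TPM and macrophage genes to 103 and 508 TPM. Sums were 42.2 and 149 TPM for adipocyte genes, 13.2 and 55.4 TPM for endothelial genes and 10.2 and 84.1 TPM for pancreatic acinar genes. Of the 6 hepatocyte genes, Alb was at 0.43 and 1.79 TPM, Fgb at 0.01 and 0.02 TPM, and the whole list at 9.23 and 63.8 TPM, led by Tat in library 1 (5.15 and 23.2 TPM) and Ttr in library 2 (3.39 and 36.5 TPM). The 6 small intestinal genes summed to 4.74 and 83.4 TPM, most of it Rbp2 (4 and 71.0 TPM), with Lct at 0 and 0.03 TPM. The 5 steroid-making cell genes summed to 6.84 and 34.8 TPM, most of it Fdx1, with Nr5a1 at 0 in both. The part of these cell types, and of GC content, in the higher Cyp2d and Cyp4f levels of library 2 was not tested. Nor was the part of GC content in the marker values.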

How the data were processed

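For both libraries the authors deposited tables of genes and of transcripts on mm10 with GENCODE M4, per the accompanying text files. No aligner, quantifier or strand setting is given in the sources used here. The deposited columns are, per the file headers, expected counts, TPM, FPKM, posterior means and SDs, and, for transcripts, the percent of the gene assigned to each. Symbols, gene types and positions came from GENCODE M21 on GRCm38, the same assembly with a later annotation, and promoter windows from RefSeq (GRCm38.p6).

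Expected counts were rounded for tests. Library sizes were scaled by TMM (edgeR 4.0.16, R 4.3.3; library 2 over library 1 was 1.35). With 1 library per side edgeR's model has no residual degrees of freedom, so an exact binomial test (scipy 1.17.1) was used. It took a mean count of at least 10, a prior count of 0.5 for ratios and Benjamini-Hochberg adjustment. The test was also run on simulated Poisson counts with the size ratio given, few changed genes and no trend with GC content. That simulation therefore does not cover the GC trend of these libraries. GC content was averaged over transcripts weighted by TPM, and trends were fitted by lowess (statsmodels 0.14.6, fraction 0.2). Coding sequences were aligned with Biopython 1.88.

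Named genes were the 20 highest by mean TPM, the highest of each family, all members of families 1, 7, 8, 11, 17, 19, 20, 21, 24, 26, 27, 39 and 46, the 5 highest and 5 lowest ratios with a mean count of at least 50, listed partner genes, genes with 0 counts, and, for transcript shares, those whose mean reached 5 TPM. The genes and lists were chosen with earlier results of these data known.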

Additional observations from a re-analysis of the deposited data

Results flagged for a closer look

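Rows with a Cyp symbol that the naming rule left out numbered 22, of which 15 are pseudogenes and 6 are protein coding. The protein-coding rows are Cyp51, Cyp3a41a, Cyp3a41b, Cyp4a12a, Cyp4a12b and Cyp4a30b. The Cyp3a and Cyp4a genes among them had 0 or 1 counts in each library. Of the rows that are not protein coding, 3 had more counts than the floor of 3 in a library. The pseudogene Cyp2d37-ps had 2.0 counts in library 1 and 31 counts in library 2 (0.21 and 5.24 TPM), and the pseudogene Cyp2d41-ps had 1.0 and 4.01 counts. Both have symbols of the Cyp2d subfamily, of which 5 of the 8 P450 genes were called higher in library 2, beside 37.0% of all genes tested. The antisense gene Cyp4x1os had 6.0 counts in library 1 and 1.0 in library 2, beside 47 and 38 counts for Cyp4x1 on the other strand. With no strand setting given, reads of these partners cannot be told apart.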

How the results depend on the processing

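Scaling by total counts moved the median of all genes from 0.12 to 0.87. It left 2 P450 genes lower in library 2, against 11.7% of all genes, and a P450 median of 1.53. With no filter on low counts the median turned to -0.18, as 59 genes then entered. Taking off the GC trend gave 10 higher and 2 lower, against 12.4 and 11.3% of all genes, and a median of 0.21. Taking off a length trend gave a median of 0.18. On the ratio of TPM values 1 P450 gene was lower, against 2.99% of all genes. Asking for any TPM above 0 in both libraries counted 47 genes in place of 25. The mean summed level was 1400.3 on the FPKM scale and 3783 TPM over nuclear protein-coding genes, in place of 1748 TPM. The log2 ratio changed sign for Cyp2e1 (total counts 0.57, GC trend off 0.47, TPM 0.90) and Cyp26b1 (total counts 0.071, TPM 0.095). With the GC trend off it also did so for Cyp2c55 (0.15), Cyp7b1 (0.16), Cyp2s1 (-0.55), Cyp20a1 (0.12), Cyp2j6 (0.23), Cyp2d22 (-0.41) and Cyp2c68 (0.35). The cause was not tested. DESeq2 size factors, TMM over nuclear protein-coding genes, a prior count of 5 and no filter each kept the direction and call of the 26 genes with a ratio that the naming rule takes. Outside that rule, Cyp2c23 lost its call under each of these (0.95, 0.95, 0.82 and 1.00 in that order), with the length trend off (0.435) and on TPM values (0.84). Cyp4v3, also outside it, kept its lower call with DESeq2 size factors. It was not called with total counts (-0.49), the GC trend off (0.002) or TPM values (-0.064). No paired analysis was possible because there is 1 group, and neither library could be left out of a ratio with 1 library per side. Depth limits what can be said of the 35 genes with 0 counts and of the genes with fewer than 10.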
